A study of Ovis aries with 6 samples.

Results

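CD3D, CD3E and CD247, 3 signalling chains of the T cell receptor complex, and CTLA4, the inhibitory receptor of activated T cells, were followed in sheep skin. They were chosen by name: every non-control probe was kept whose target is a sheep RefSeq transcript of 1 of these genes. This gave 4 of the 476 genes with a symbol and 8 of the 15008 probes on the array, with 2 probes to each gene. The samples were skin, taken through its full thickness, of 3 sheep of the Aohan fine wool breed aged 12 months, 1 ram and 2 ewes with a common sire, all penned together under normal keeping and given no treatment that the labels name. Each animal was sampled at both sites. Skin of the body side, which bears wool, gave 3 arrays, and skin of the groin, which does not, gave 3 arrays; each array was hybridised with Cy3-labelled RNA of 1 sample. The series is titled as a search for genes of wool growth, and the comparison asks which genes differ between the site with wool and the site without.

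The T cell receptor recognises antigen through its own variable chains but cannot signal alone. It is assembled with the CD3 chains and with the CD247 (zeta) homodimer, whose cytoplasmic tails carry the tyrosine motifs that LCK phosphorylates when antigen is bound. CD247 also couples activating receptors of NK cells and certain Fc receptors, whereas the CD3 chains are close to restricted to T cells. CTLA4 competes with CD28 for CD80 and CD86 on antigen-presenting cells and restrains the response. Skin holds resident T cells in epidermis, dermis and around hair follicles, and in ruminants gamma delta T cells are common among them. In the RefSeq gene table, CD3D and CD3E are next to each other, and CTLA4 lies between CD28 and ICOS.

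The chains of the receptor complex did not change together. CD3D was 2.57-fold and CD3E 3.09-fold higher on the body side, relative to the 75th percentile of each array. CD247 went the other way and was 2.27-fold higher in the groin. CTLA4 was 1.52-fold higher on the body side, by the smallest margin of the 4 brightest probes. The other probe of each gene gave the same direction and also passed the threshold, so that 6 of 8 probes rose and 2 fell (limma, adjusted p under 0.05 over all 13278 tested probes). In whole skin, a lower level can come from fewer cells of a type or from less RNA per cell, and these cannot be told apart.

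That all 8 probes passed says little in itself, because most of the array did. Of all tested probes, 69.9% passed, 37.0% higher and 32.8% lower on the body side. The arrays of the sites did not overlap for any of the 8 member probes, nor for 75.2% of all tested probes. Among the 442 tested genes with a symbol, 71.0% passed, 45.5% higher and 25.6% lower. The median difference was 0.10 over all tested probes, 0.39 over the genes with a symbol and 1.03 over the 8 member probes.

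The body side arrays were dimmer than the groin arrays, and this bears on every value below. The 75th percentile of the processed signal lay between 1103 and 2048 on the body side and between 3677 and 4401 in the groin. It was 2.98 times as high in the groin (two-sided exact permutation p = 0.1, and no lower value can come from 3 arrays a site). The median of the 77 negative control spots, which match no sheep transcript, was about as low at both sites before scaling (log2 difference 0.035, exact permutation p = 1) and was 1.61 higher on the body side after it. The arrays of the groin shared 1 scan and those of the body side another, so scan and site cannot be told apart. Without scaling, only 1.98% of the passing probes were higher on the body side, against 53.0% with the main scaling and 68.5% with median centring. All levels below are log2 processed signals after subtraction of the log2 75th percentile of their own array, so that 0 means a signal equal to that percentile.

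CD3D encodes the delta chain of CD3. Its brightest probe, A_70_P039311, read -0.24, -0.60 and -0.61 on the 3 groin arrays and 1.12, 0.77 and 0.75 on the 3 body side arrays. Every body side array was above every groin array. Body side arrays averaged 0.88 ± 0.21 and groin arrays -0.48 ± 0.21 (SD, n = 3 each), a difference of 1.36 ± 0.19 (SE; 95% interval 0.93 to 1.80; limma adjusted p = 3.96e-04). The other probe, A_70_P039312, read -0.21, -0.46 and -0.51 in the groin and 0.92, 0.77 and 0.62 on the body side. Its difference of 1.16 ± 0.17 (limma adjusted p = 5.45e-04) was close to that of the first probe. As scanned, the brightest probe gave processed signals of 3112, 2753 and 2879 in the groin and of 2389, 3496 and 1896 on the body side. These unscaled signals overlapped between the sites, with a log2 difference of -0.21.

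CD3E encodes the epsilon chain, which pairs with the delta and gamma chains in the assembled receptor. Its brightest probe, A_70_P039466, read 0.88, 0.67 and 0.57 in the groin and 2.49, 2.29 and 2.22 on the body side. The sites were again fully separate, and the spread within each site was small. Body side arrays averaged 2.33 ± 0.14 and groin arrays 0.71 ± 0.16 (SD, n = 3 each), a difference of 1.63 ± 0.17 (SE; 95% interval 1.23 to 2.02; limma adjusted p = 1.08e-04). The other probe, A_70_P039467, read 0.10, -0.26 and -0.23 in the groin and 0.93, 0.85 and 0.65 on the body side, a difference of 0.94 ± 0.18 (limma adjusted p = 0.00172). The size of the rise thus depended on the probe: the first exceeded the second by 0.68, and on every body side array the gap between the probes was wider than on every groin array (exact permutation p = 0.1). Processed signals of the brightest probe were 6781, 6632 and 6533 in the groin and 6189.8, 9994 and 5279.96 on the body side. Unscaled, its difference was 0.051.

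**Figure D1:**
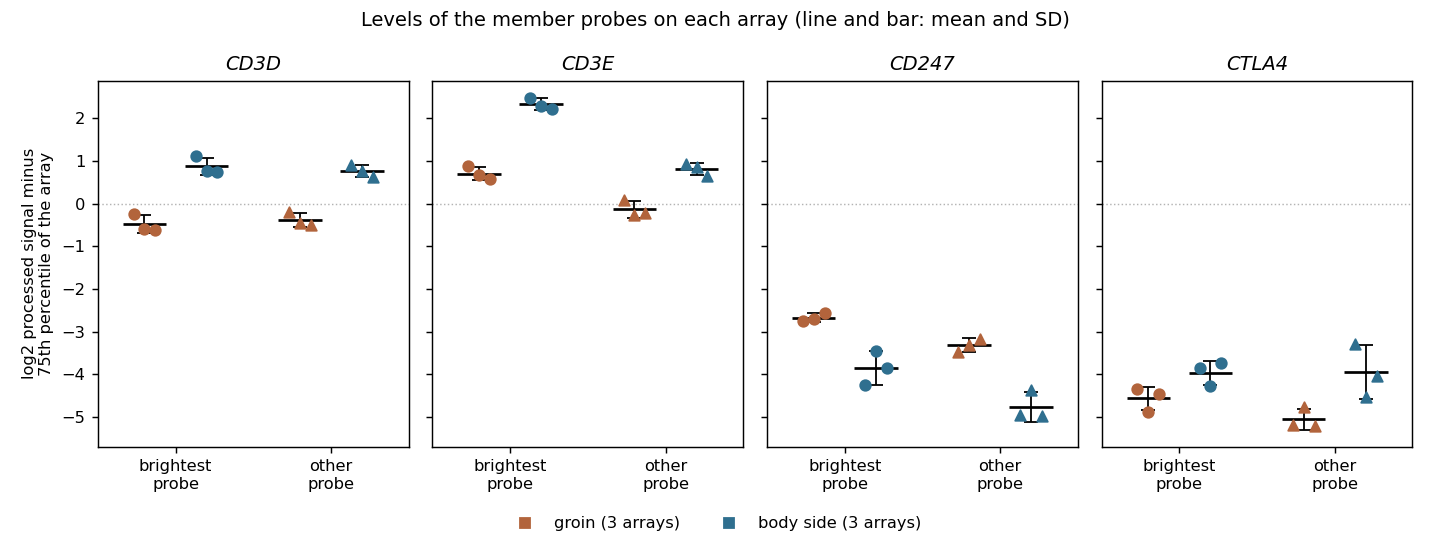
Level of each member probe on each array, in log2 units relative to the 75th percentile of that array, with 3 groin and 3 body side arrays per probe; circles are the brightest and triangles the other probe of a gene, lines are means and bars SDs. CD3D, CD3E and CTLA4 lie higher on the body side and CD247 lies lower, and for no probe do the arrays of the 2 sites overlap.

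CD247 encodes the zeta chain. Its brightest probe, A_70_P039351, read -2.76, -2.70 and -2.56 in the groin and -4.25, -3.47 and -3.85 on the body side. All body side arrays were below all groin arrays, with more spread on the body side. Body side arrays averaged -3.86 ± 0.39 and groin arrays -2.67 ± 0.11 (SD, n = 3 each), a difference of -1.18 ± 0.22 (SE; 95% interval -1.69 to -0.68; limma adjusted p = 0.00159). The other probe, A_70_P039352, read -3.47, -3.31 and -3.17 in the groin and -4.96, -4.38 and -4.99 on the body side. It fell by 1.46 ± 0.21 (limma adjusted p = 4.85e-04). The processed signals of the brightest probe were 542, 641 and 748 in the groin but 58.1, 185 and 78.1 on the body side, and unlike those of the CD3 chains they were separate before any scaling, with a log2 difference of -2.76.

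These CD247 spots were dim on the body side. The spot's median signal was between 8.39 and 15.6 times its local background in the groin and between 2.37 and 5.01 times on the body side, although both probes were well above background on all 6 arrays. The size of the fall therefore moved with the background step. With normexp correction the brightest probe differed by -0.55 (adjusted p = 0.00637), and the other probe by -0.35, no longer past the threshold (adjusted p = 0.0805, in a range over its alternatives from 8.18e-05 to 0.0805). For CD3D and CD3E the spots stood at least 37.4 times above local background everywhere.

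CTLA4 gave the weakest difference by the brightest probes. By the other probes CD3E did, at 0.94 against 1.11 for CTLA4. The brightest CTLA4 probe, A_70_P029997, read -4.36, -4.88 and -4.47 in the groin and -3.87, -4.28 and -3.75 on the body side. The sites did not overlap, but the highest groin array and the lowest body side array lay close together. Body side arrays averaged -3.97 ± 0.28 and groin arrays -4.57 ± 0.28 (SD, n = 3 each), a difference of 0.60 ± 0.22 (SE; 95% interval 0.11 to 1.1004; limma adjusted p = 0.0349). The other probe, A_70_P029996, read -5.19, -4.77 and -5.22 in the groin and -3.29, -4.53 and -4.04 on the body side, a difference of 1.11 ± 0.31 (limma adjusted p = 0.0114). Its highest value was that of the ram.

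The call on the brightest CTLA4 probe ended with 4 of the 6 arrays left out singly. It was lost without groin replicate 2 (0.45), groin replicate 3 (0.65), body side replicate 1 (0.55) or body side replicate 3 (0.49), and without replicate 1 (0.66) or replicate 3 (0.54) at both sites. Among the settings that left out arrays, the call on its other probe ended without replicate 3 at both sites (1.08, adjusted p = 0.0708); it also ended, with the direction reversed, without scaling (-0.46, adjusted p = 0.201). The CTLA4 spots stood only 2.85 to 4.78 times above local background. Before scaling, the brightest probe read 179, 141 and 199 in the groin and 75.6, 105 and 84.1 on the body side, so its direction was the reverse (-0.97, adjusted p = 0.0121). The negative control spots moved the same way with the scaling, as given above, and their part in the CTLA4 difference was not tested.

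**Figure D2:**
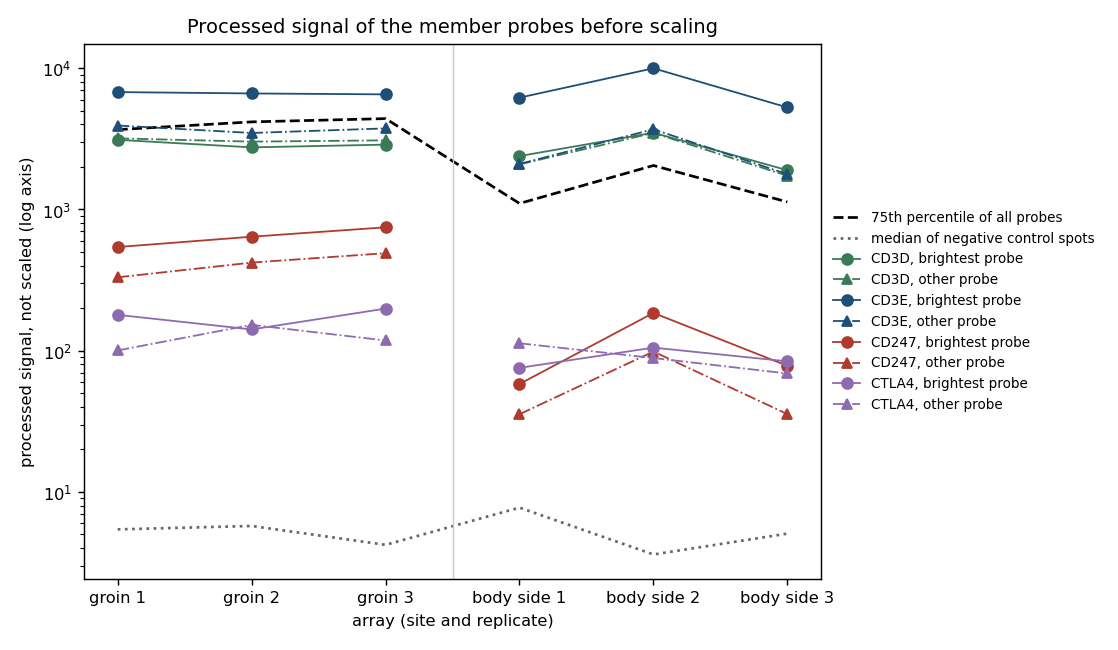
Processed signal before scaling (log axis) of the 8 member probes on each of the 6 arrays, with the 75th percentile of all probes and the median of the negative control spots. The brightest CD3D and CD3E probes change by -0.21 and 0.051 (log2) between sites and their other probes by -0.41 and -0.63, while the 75th percentile drops from 3677 or more in the groin to 2048 or less on the body side; CD247 drops further than the percentile, and CTLA4 less.

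Across the 8 probes, the direction was the same with quantile normalization, median centring, cyclic loess, normexp and the authors' deposited log2 values as with the main scaling. By the brightest probes, CD3D ranged from 1.19 to 1.82 and CD3E from 1.05 to 2.08 over all alternatives that scale the arrays. CD247 ranged from -1.39 to -0.55 and CTLA4 from 0.45 to 1.06. The other probes ranged from 0.99 to 1.62 for CD3D and from 0.73 to 1.40 for CD3E. Their ranges were -1.66 to -0.35 for CD247 and 0.72 to 1.57 for CTLA4. Without any scaling, CD247 was the 1 member that kept its call and direction by the brightest probe. CD3D and CTLA4 turned negative, and CD3E lay near 0. In that setting 9412 tested probes passed as lower and 190 as higher, so a lower call there does not set CD247 apart. The brightest CD247 probe had an adjusted p under 0.05 in all of its 20 alternatives, but the other lost its call with normexp.

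**Figure D3:**
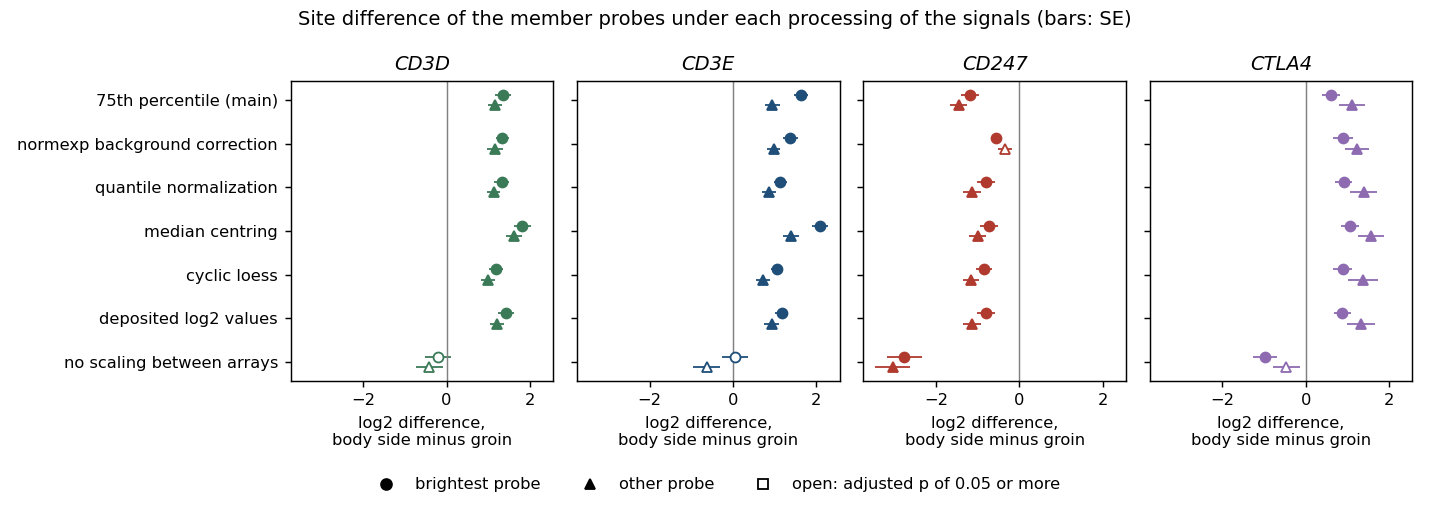
Site difference (log2, body side minus groin) with its SE for both probes of each gene under 7 ways of processing the signals; filled symbols passed an adjusted p of 0.05. Where arrays were scaled, CD3D, CD3E and CTLA4 stay to the right of 0 and CD247 to the left; without scaling all 4 genes shift left, to between 0.051 and -2.76 for the brightest probes.

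Subtracting 1 member from another on the same array cancels any scaling by 1 factor per array. On that measure CD3E against CD247 shifted by 2.81 from groin to body side, a 7.01-fold unequal change, and CD3D against CD247 by 2.54. Both differences were wider on every body side array than on every groin array. CD247 against CTLA4 shifted by -1.79, CD3E against CTLA4 by 1.02, CD3D against CTLA4 by 0.76 and CD3D against CD3E by -0.26. For all 6 pairs the sites did not overlap. The two-sided exact permutation p was 0.1, also after adjustment over the 6 pairs, which is the lowest this design can give. The share of pairs of other probes without overlap was not computed. Since 75.2% of all tested probes did not overlap singly, separation alone does not set these pairs apart.

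The other probes of the genes gave a like shift where CD247 was involved, at 2.40 for CD3E against it, 2.62 for CD3D against it and -2.57 for CD247 against CTLA4 (exact permutation p = 0.1 each). They did not for the rest: CD3D and CD3E against CTLA4 shifted by 0.049 and -0.17 with overlapping sites (exact permutation p = 1 and 0.8), and CD3D against CD3E by 0.22, opposite to the first probes. Only the pairs with CD247 kept direction and separation with both probes. Shifts for the brightest probes were smaller with normexp, which changes the background step and keeps 1 factor per array. They were also smaller with quantile normalization, cyclic loess and the deposited values, which do not scale by 1 factor. Over these settings they were 1.90 to 1.97 for CD3E against CD247 and 0.16 to 0.48 for CD3E against CTLA4.

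The site difference also moved with brightness over the array as a whole. In 10 equal groups of tested probes by mean level, the median difference ran from -0.42, in the fifth group, to 1.14 among the brightest probes. The brightest CD3D probe was 1.11 above the median of its brightness group and the brightest CD3E probe 0.95 above. CD247 was 0.92 below and CTLA4 0.71 above the median of theirs. Within these groups the differences stood at the 90.6th percentile for CD3D, the 89.0th for CD3E, the 27.9th for CD247 and the 68.7th for CTLA4. The brightest CD247 and CTLA4 probes thus lay between the quartiles of their groups, whereas the other CD247 probe (21.9th percentile) lay below the lower and the other CTLA4 probe (81.1th) above the upper quartile of theirs.

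**Figure D4:**
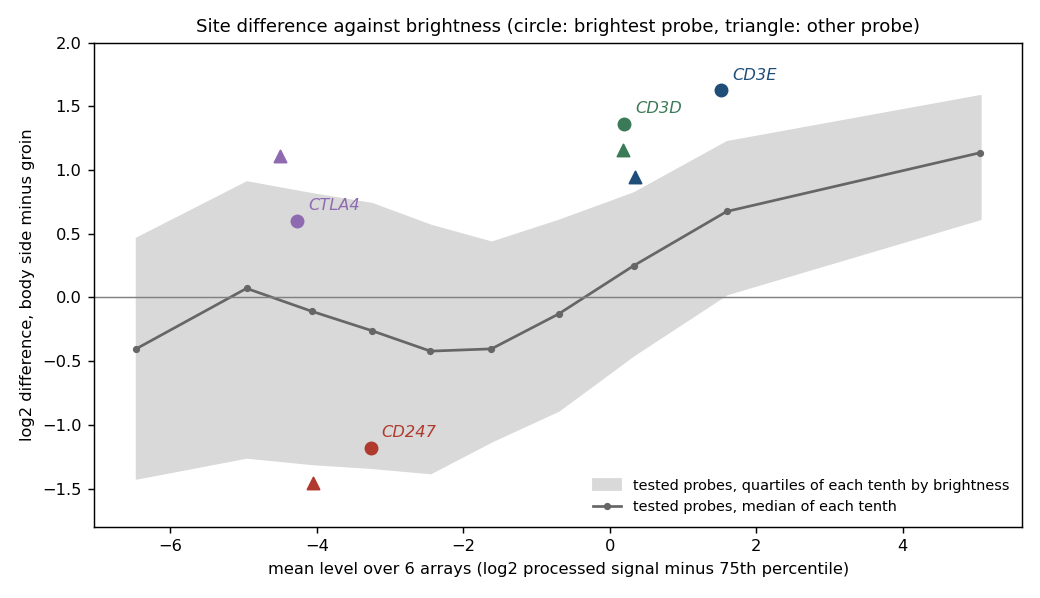
Site difference (log2, body side minus groin) against mean level over 6 arrays for the 8 member probes, over the median and quartiles of all 13278 tested probes in 10 brightness groups drawn at the middle of each group's range. The CD3D and CD3E probes lie above the upper quartile of probes of like brightness; the brightest probes of CD247 and CTLA4 lie between the quartiles.

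Whether the site difference depended on sex could not be decided with 1 ram. For the brightest probes the ram's difference was 1.36 for CD3D, 1.61 for CD3E, -1.48 for CD247 and 0.49 for CTLA4, against 1.36, 1.64, -1.03 and 0.66 in the ewes. The gap between ram and ewes was estimated as the interaction of site and sex, fitted with 1 ram array at each site. Of the 8 probes, the other CTLA4 probe had the largest gap between ram and ewes. It differed by 1.90 in the ram and 0.72 in the ewes, a gap of 1.19 ± 0.47 SE. With 1 ram, its arrays carry no spread of their own.

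The list of receptor signalling and costimulation genes held 61 entries, of which 7 besides the members had a named probe and 5 were tested. Of these, 3 rose, none fell and 2 did not pass, with a median difference of 0.74. Among all 442 tested genes with a symbol 71.0% passed, and the median difference was 0.39, so these counts do not set the list apart. The 3 genes of the list that rose act at the contact between T cells and antigen-presenting cells. CD80, a ligand of CD28 and CTLA4, averaged -2.04 ± 0.08 in groin skin and -0.68 ± 0.42 in body side skin (SD, n = 3 each; a rise of 1.36 ± 0.23 SE, limma adjusted p = 9.27e-04). CD86, the other ligand of both receptors, rose by 0.74 ± 0.20, with the other CD86 probe at -0.28 and not past the threshold. Without replicate 3 at both sites CD86 differed by 0.62 (adjusted p = 0.103) and no longer passed. CD40LG, the T cell ligand that activates antigen-presenting cells through CD40, rose by 1.52 ± 0.31, while its other probe read -0.024. Without scaling CD80 differed by -0.21, CD86 by -0.83 and CD40LG by -0.057.

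LCK, the kinase that phosphorylates the CD3 and CD247 tails, differed by 0.33 ± 0.16 and did not pass (limma adjusted p = 0.106); with quantile normalization it did, at 0.75, as with normexp, median centring, cyclic loess and the deposited values. FAS, a death receptor of activated lymphocytes, differed by -0.16 ± 0.16 and did not pass, and was above 0 with those same 5 alternatives; its other probe passed at -0.52. CD4, the coreceptor of helper T cells, was well above background on 1 groin array and on no body side array, with processed signals from 10.9 to 24.4. CD28, the costimulatory receptor, was well above background on none, with signals from 3.76 to 12.9. Neither was tested, and no difference can be read for them.

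Among 51 entries of the list of T cell cytokines and cytokine receptors, 22 had a named probe and 18 were tested: 13 rose, 4 fell and 1 did not pass, with a median of 0.89. Among all tested genes with a symbol, 45.5% rose and 25.6% fell. Where probes were well above background on all 6 arrays, 13 rose and 2 fell of 16. Under that filter 73.4% of all 10580 tested probes passed, and 61.8% of those were higher, against 53% in the main fit. IL2, the growth factor of T cells, rose by 1.099 ± 0.159 SE (limma adjusted p = 4.77e-04) and IL2RA, the alpha chain of its receptor, by 0.64 ± 0.16. IFNG, the main product of type 1 T cells, rose by 0.82 ± 0.17, and IL5 and IL3, growth factors of eosinophils and mast cells, by 1.74 ± 0.19 and 1.46 ± 0.17. IL10, which dampens responses, rose by 0.76 ± 0.16 and CSF2, a growth factor of myeloid cells, by 1.31 ± 0.29. IL12A, a subunit of interleukin 12, rose by 0.95 ± 0.26, while its other probe read 0.66 and did not pass. The other probes of IL10 and IL2RA passed, at 0.56 and 1.31. Without replicate 3 at both sites the calls on IL10 (0.71), IL2RA (0.60) and IL12A (1.01) ended, as did that on IL12A without replicate 1 (0.60).

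Before scaling, the direction was the reverse for most of these cytokines. IL2 gave processed signals of 95.9, 106 and 131 in the groin and 66.8, 112 and 66.5 on the body side, and IFNG 210.3, 247 and 241 against 130.6, 190 and 106. Unscaled, IL2 differed by -0.48, IFNG by -0.75, IL10 by -0.81 and IL2RA by -0.94. IL5 was at 0.16 unscaled, and its groin signals of 268, 428 and 330.4 overlapped those of the body side, at 339, 552 and 285. With normexp all of these stayed above 0, from 0.88 for IL2RA to 1.77 for IL5.

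The 3 chemokines and the 1 chemokine receptor of the list that were tested also rose, as did 45.5% of all tested genes with a symbol. CXCL8, which attracts neutrophils, rose by 2.47 ± 0.20 SE and stayed above 0 without scaling (0.89). CXCL10, which attracts activated T cells, rose by 1.38 ± 0.20. CCR10, a receptor of T cells that home to skin, rose by 1.104 ± 0.194, and its other probe gave 1.17. CCL25, an attractant of gut-homing T cells, rose by 0.75 ± 0.19, though not without replicate 3 (0.62), and TNF, a general inflammatory cytokine, by 1.60 ± 0.18. Without scaling CXCL10 differed by -0.19, CCR10 by -0.47, CCL25 by -0.82 and TNF by 0.030.

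The genes that fell included survival factors that T cells receive from their surroundings. IL7, a survival factor for T cells from stroma and epithelium, fell by 1.58 ± 0.22 SE, with 2 of 3 body side arrays well above background, and lost its call with normexp (-0.33). IL15, another survival factor, fell by 0.80 ± 0.29 with 1 such array and was above 0 with normexp (0.79); its other probe fell by 0.94. The IL15 call ended in 12 other alternatives, with differences of -1.13 to -0.49 when arrays were left out. TGFB1, a suppressive cytokine of many cell types, fell by 1.09 ± 0.18 and IL18, made by macrophages and keratinocytes, by 0.67 ± 0.15. The call on IL18 ended with median centring (-0.21) and without replicate 3 (-0.73, adjusted p = 0.0548). IL6 did not pass (0.12 ± 0.30). IL4, IL13, IL12B and CCR9 were not well above background on all arrays of either site and were not tested.

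**Figure D5:**
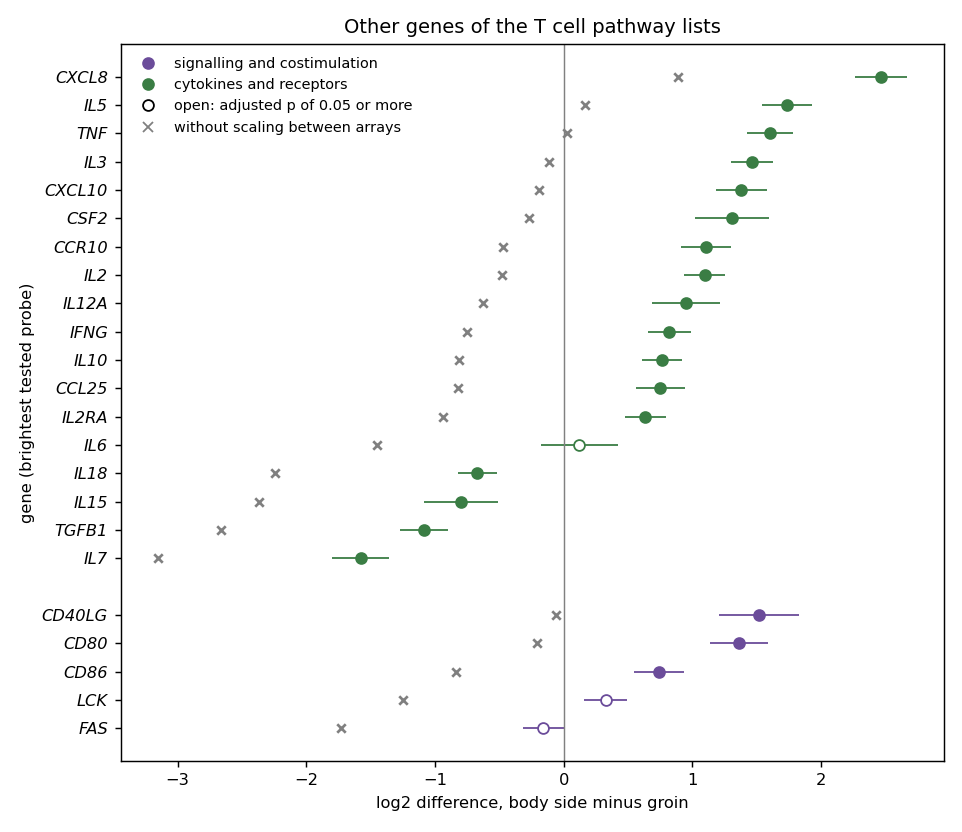
Site difference (log2, body side minus groin, with SE) of the 23 tested genes of both T cell lists, by the brightest probe; filled circles passed an adjusted p of 0.05, and crosses give the difference without scaling between arrays. With scaling, 16 genes are filled to the right of 0 and 4 to the left; without it only CXCL8, IL5 and TNF lie above 0.

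Markers of other cells moved in both directions. Among all 442 tested genes with a symbol, 45.5% rose and 25.6% fell, so counts in these short lists say little alone. GNLY, the 1 tested gene of 16 NK and cytotoxic markers, rose by 0.89 ± 0.27 SE, a call that ended in 6 alternatives, 5 of which left out arrays (0.63 without replicate 3); its level ran from -1.84 to -1.09 on the body side and from -2.80 to -2.10 in the groin. CR2, the 1 tested gene of 12 B cell markers, fell by 1.68 ± 0.18. Of 6 tested of 16 myeloid markers 2 fell, TLR4 by 1.52 ± 0.18 and FCGR1A by 0.88 ± 0.19, and 4 did not pass by their brightest probe; the mean level of the 6 ran from -2.89 to -2.45 on the body side and from -2.25 to -1.96 in the groin. The other probes of 3 of the 4 myeloid genes that did not pass did pass as lower, ITGAM at -3.02, TLR2 at -1.74 and CD14 at -0.89; these were named after their values were seen. The FCGR1A call ended without replicate 3 (-0.82), with normexp (-0.39), quantile normalization (-0.44), median centring (-0.43) and the deposited values (-0.45). Of 3 mast cell markers the tryptase TPSB2 fell by 1.27 ± 0.18, FCER1A rose by 0.44 ± 0.16 and CMA1 did not pass (-0.89 ± 0.38). The other CMA1 probe passed as lower, at -0.99. The brightest CMA1 probe was well above background on 1 of 3 body side arrays and read 0.45 with normexp. The other FCER1A probe read -0.59 without passing, and the FCER1A call ended in 8 alternatives, among them the replicate block and 7 that left out arrays (0.38 to 0.52 over all that did). CD1D, the 1 tested antigen presentation gene of 19, did not pass (0.16 ± 0.24). The part of these cells in the member differences was not tested.

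For the tissue itself, all 5 tested wool follicle markers rose, with KRT35, a hair shaft keratin, at 4.72 ± 0.23 SE. The shares over all tested genes with a symbol were 45.5% higher and 25.6% lower. Of 3 dermal fibroblast genes 1 rose and 2 fell. MMP2 fell by 3.71 ± 0.20, with 2 of 3 body side arrays well above background, and kept its call in all 18 alternatives. The 2 other MMP2 probes gave -3.31 and -3.17. DCN, which rose, was below 0 with quantile normalization, cyclic loess and the deposited values. Without replicate 3 it read 0.69 and lost its call, and its other probe read 0.32 without passing. The BGN call, as lower, ended with median centring (-0.40) and without replicate 3 (-0.69). Both tested endothelial selectins fell, SELP by 0.69. The SELP call ended with normexp (-0.042), quantile normalization (-0.30), median centring (-0.24), the deposited values (-0.31) and without replicate 3 (-0.71). Of 2 red blood cell genes HBB rose and CA1 fell. HBB rose by 1.70 ± 0.43, but differed by 0.13 without scaling. CA1 was well above background on 1 of 3 body side arrays, with signals from 11.8 to 30.7, so the size of its fall is uncertain. No epidermis marker had a named probe.

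The named genes with the most similar pattern were found by the root mean square difference of the 6 array values after subtracting each probe's mean, among 438 other genes with complete values. For CD3E the nearest was XCL1, a chemokine made by T and NK cells (0.090 on the log2 scale; site difference 1.51 ± 0.15 SE), followed by CDK1, a cell cycle kinase (0.11), and CAST, an inhibitor of calpains (0.13). For CD3D they were ATOX1, a copper chaperone (0.099), ABHD5, a cofactor of lipolysis (0.10), and PTGS2, an inducible prostaglandin synthase (0.13). CD3E ranked 10th in likeness to CD3D (0.15), CTLA4 ranked 154th (0.44) and CD247 ranked 372nd (1.33). Nearest to CD247 were ME1, the cytosolic malic enzyme (0.092), MAPKAP1, a subunit of mTOR complex 2 (0.10), and TUBA4A, a tubulin (0.11). Nearest to CTLA4 were BST-2B (0.10), IDH1, the cytosolic isocitrate dehydrogenase (0.14), and STAR, a carrier of cholesterol into mitochondria (0.14). Over 6 arrays in 2 sites such likeness mostly reflects the site difference, and the site difference of IDH1 turned negative with quantile normalization (-0.44). With quantile normalization ATOX1 differed by 0.25 and no longer passed, and ABHD5 and CAST by 0.64 and 0.71, while CD3D stayed at 1.32.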

How the data were processed

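Intensity values of each array were, per the submitters' processing notes, extracted by Agilent's software Feature Extraction, version 10.5.1.1. Processed signals, as deposited, had been background-subtracted and detrended within an array but carry no normalization across arrays, per the file headers. A second table deposited by the authors gives log2 values of the same probes; all 6 columns have a median of 8.31 and correlated at 0.999 with quantile-normalized log2 signals, and their between-array step is not given in the sources used here.

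Control and outlier spots (6 to 51 per array) were left out, no spot was saturated, and 50 probes with 5 spots were averaged. Main values were log2 processed signals minus each array's 75th percentile. Probes were tested where well above background on all 3 arrays of a site with at least 2 values per site (13278 tested, 1730 set aside), with limma 3.58.1 in R 4.3.3, body side minus groin, with Benjamini-Hochberg adjustment (threshold 0.05). The fit was also run on simulated data with independent noise and no scan or array-wide brightness difference between the sites. That run therefore does not cover those features of the real arrays. Normexp correction (offset 50) used the median spot signal. Replicates within a site are separate animals that share a father, and the same animals gave both sites, but the labels match only the ram between sites, so the fit treated arrays as independent; their number limits precision.

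Probes were named by RefSeq accession through a gene table of ARS-UI_Ramb_v3.0 (734 matched, 14274 not). The brightest probe stands for a gene. Text genes are all member probes, all tested genes of both T cell lists, up to 3 genes per cell type list by adjusted p, and the 3 nearest genes to each member. ITGAM, TLR2 and CD14 were named outside this rule, for their other probes. The members and lists were chosen with earlier results of these data known. No sequences were used here.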

Additional observations from a re-analysis of the deposited data

How the results depend on the processing

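Of 20 alternatives each for the brightest probes, CD247 kept direction and call in all, CD3D and CD3E in all but 1, and CTLA4 in 13. The 1 that CD3D and CD3E lost was the fit without scaling, where most passing probes were lower. The other CD247 probe lost its call with normexp. With unscaled arrays the values were -0.21 for CD3D (other probe -0.41), 0.051 for CD3E (other probe -0.63) and -0.97 for CTLA4 (other probe -0.46), and 9 cytokine list genes passed, all lower, in place of 17. Leaving out arrays gave 0.45 to 0.76 for the brightest CTLA4 probe. It left 11 to 18 passing cytokine genes, the lowest number without replicate 3. The shift of CD3D against CD3E turned to 0.26 with the deposited values, 0.19 with quantile normalization and 0.14 with cyclic loess, which do not scale by 1 factor per array. Median centring raised the median of all tested probes by 0.46, normexp by 0.36, and no scaling lowered it to -1.47. Between 6510 (without replicate 3) and 9796 (no filter on dim probes) probes passed in the alternatives run; without scaling 190 were higher and 9412 lower. With the replicate block 9211 passed, and all 8 member probes kept their call. Deviations of same-numbered arrays correlated at 0.16, 0.089 and -0.088, and only replicate 1, the ram, is the same animal at both sites by its labels, so the main fit has no pairs although each animal gave both sites. A scan block could not be fitted, since each scan held 1 site. Dim spots limit CTLA4 and CD247 on the body side.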
